A study of Mus musculus with 6 samples.

Results

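The teneurins (Tenm1, Tenm2, Tenm3 and Tenm4) and the latrophilins (Adgrl1, Adgrl2, Adgrl3 and Adgrl4) make up 8 of the 50686 genes counted. They were selected by symbol in the GENCODE vM21 annotation. The family was taken up because Tenm4 gave more reads in the RNASeq libraries labelled NSC Bmi1Over than in those of NSC. The difference between these groups is therefore a description for all 8 genes and carries no test. All 8 had counts, and 6 passed the filter on low counts. Tenm1 and Adgrl4 did not pass it.

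Teneurins are large transmembrane proteins that act as cell adhesion molecules. Latrophilins are adhesion G protein-coupled receptors, first known as receptors of a spider toxin. A teneurin on one cell binds a latrophilin on another, and in the brain this contact takes part in axon guidance and in the choice and build-up of synapses. FLRT and UNC5 proteins bind latrophilins as well, and complexes with several of these proteins are known. H3K27me3, the trimethylation of lysine 27 of histone H3, is the mark left by Polycomb repressive complex 2. Bmi1 is a subunit of Polycomb repressive complex 1, which can bind that mark.

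NSC were neural stem cells cultured from wild-type mouse embryos, and NSC Bmi1Over came from STOPFloxBmi1;NestinCre embryos, in which Cre under Nestin control removes the stop before a Bmi1 transgene. Both were taken from the hemispheres of embryos of the same stage, E16.5. RNASeq covered 2 independently prepared cultures per group. H3K27me3 was given as 1 ChIPSeq peak list per group, with no replicate. The mGIC samples were not analysed here.

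The gene targeted by the transgene was not higher in the libraries named for it. Bmi1 was at 133 and 124 CPM (reads scaled by the normalised size of the library) in NSC, against 119 and 113 CPM in the libraries labelled NSC Bmi1Over, a log2 fold change of -0.15 (SE 0.12, adjusted p = 0.463 by edgeR's quasi-likelihood F-test, n = 2 per group). Both libraries labelled NSC Bmi1Over thus lay below both NSC libraries. Whether transcripts of the transgene are counted at this gene was not tested, so the groups rest on the labels alone, and every difference below is between libraries so labelled. Libraries held 18112100 to 61353076 counted reads. The share of reads that could not be mapped came to 11.2% and 13.7% for NSC, against 16.2% and 17.6% for the libraries labelled NSC Bmi1Over, and the 10 most abundant genes took 5.23% and 6.48% against 8.57% and 10.1% of counted reads. Of the neural stem cell markers, 10 of 10 passed the filter, and their summed level was 5999 to 6667 CPM in NSC and 6537 to 6697 CPM in the other group, a sum of which Slc1a3 made up the largest part. Both libraries labelled NSC Bmi1Over lay below both NSC libraries for 6 of the 10 (Sox2, Pax6, Vim, Hes1, Hes5 and Fabp7), beside 30.0% of all genes tested, with log2 fold changes from -0.10 (Vim) to -0.74 (Hes5), and above them for Slc1a3 (0.46). The median of the 10 was -0.21, and 0 passed the test in edgeR, beside 2.03% of all genes called higher and 0.122% lower. At an unadjusted p under 0.05, edgeR gave 0 higher and 2 lower, beside 17.0% and 7.22% of all genes. DESeq2 called 1 higher and 0 lower after adjustment, beside 9.46% and 1.39% of genes. The part of these markers in the levels of the family was not tested. Since these were bulk cultures, fewer cells of a type and less RNA per cell cannot be told apart.

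The stretches of DNA below show where the mark lay at these genes and where it was missing. Each is 250 bases of GRCm38, the build of the files, read on the strand of the gene and outside annotated exons, with every CG dinucleotide in capitals. The first lies just before a coding transcript start of Tenm4 (chr7:96211421-96211670, plus strand) and inside a peak of the NSC list but of no peak in the NSC Bmi1Over list. The Tenm2 stretch (chr11:37234783-37235032, minus strand) lies near the 5′ end of the gene and is covered in both lists. The Tenm3 stretch (chr8:48554391-48554640, minus strand) is the centre of the only Tenm3 peak in NSC. For contrast, the stretches before the RefSeq start of Adgrl1 (chr8:83899848-83900097, plus strand) and before the 5′ end of Adgrl3 (chr5:81019888-81020137, plus strand) had no peak in either list.
Tenm4: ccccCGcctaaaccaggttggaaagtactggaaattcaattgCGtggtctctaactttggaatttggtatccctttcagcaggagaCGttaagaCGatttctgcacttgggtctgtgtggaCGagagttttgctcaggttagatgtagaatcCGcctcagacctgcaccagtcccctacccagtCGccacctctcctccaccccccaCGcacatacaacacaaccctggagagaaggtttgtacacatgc
Tenm2: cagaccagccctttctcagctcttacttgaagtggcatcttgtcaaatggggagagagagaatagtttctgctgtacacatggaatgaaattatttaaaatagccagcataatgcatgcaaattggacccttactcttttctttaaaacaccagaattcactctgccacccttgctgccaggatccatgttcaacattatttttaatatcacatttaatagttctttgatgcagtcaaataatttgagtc
Tenm3: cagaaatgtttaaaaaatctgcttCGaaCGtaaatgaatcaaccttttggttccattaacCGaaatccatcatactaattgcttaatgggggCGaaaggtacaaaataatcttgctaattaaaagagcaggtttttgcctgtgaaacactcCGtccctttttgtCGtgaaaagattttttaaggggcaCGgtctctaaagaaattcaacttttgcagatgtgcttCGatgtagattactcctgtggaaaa
Adgrl1: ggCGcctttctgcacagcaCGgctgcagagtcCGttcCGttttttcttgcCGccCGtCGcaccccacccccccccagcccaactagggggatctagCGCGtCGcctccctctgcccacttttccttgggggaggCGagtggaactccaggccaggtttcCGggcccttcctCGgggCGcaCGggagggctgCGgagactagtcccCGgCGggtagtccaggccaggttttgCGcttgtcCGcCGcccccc
Adgrl3: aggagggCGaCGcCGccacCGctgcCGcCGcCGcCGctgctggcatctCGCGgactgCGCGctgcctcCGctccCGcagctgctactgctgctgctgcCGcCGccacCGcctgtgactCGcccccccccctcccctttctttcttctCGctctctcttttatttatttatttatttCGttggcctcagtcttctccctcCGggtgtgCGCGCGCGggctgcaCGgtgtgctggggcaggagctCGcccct

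The dinucleotide CG, which reads the same on both strands, occurred 8 times in the Tenm4 stretch, 0 times in the Tenm2 stretch and 8 times in the Tenm3 stretch. It occurred 21 times before Adgrl1 and 27 times before Adgrl3. The 250 bases before the start of the 32817 promoters in the RefSeq table held a median of 6, and 92.1% of them held at least 1. At least 8 were held by 43.0% of these promoters, at least 21 by 16.3% and at least 27 by 8.57%. G and C made up 51.6% of the Tenm4 stretch, 37.6% and 36.8% of those of Tenm2 and Tenm3, and 68.8% and 67.6% of those of Adgrl1 and Adgrl3. The stretches without a peak were thus the richer in CG among these 5. The Tenm2 and Tenm3 stretches are centred on peaks and not on a transcript start, so they are not promoters in the sense of the table.

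Tenm4, a teneurin known for its part in oligodendrocyte differentiation and myelination, gave 17.9 and 19.9 CPM in NSC (565 and 503 reads). It gave 50.7 and 54.5 CPM in the libraries labelled NSC Bmi1Over (887 and 3113 reads). The cultures of a group lay close together, and the lowest library labelled NSC Bmi1Over was 2.55-fold above the highest NSC library. The log2 fold change was 1.48 (SE 0.13), or 2.79-fold. Within NSC the cultures differed by 0.15 on the log2 scale, and within the other group by 0.10. By log2 fold change Tenm4 stood at position 206 of 15521 genes tested, and at position 86 of the 315 genes called higher.

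Tenm3, a teneurin studied in the wiring of the visual system and the hippocampus, was the teneurin with the highest level per kb of exon in all 4 libraries. It gave 74.0 and 79.2 CPM in NSC and 84.8 and 97.3 CPM across the libraries labelled NSC Bmi1Over, a log2 fold change of 0.25 (SE 0.13). The groups did not overlap, but the step from the highest NSC library to the lowest of the other group was 1.07-fold.

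Tenm2, a teneurin found at synapses as a partner of latrophilin 1, gave 0.95 and 0.83 CPM in NSC (30 and 21 reads) and 0.51 and 2.13 CPM across the libraries labelled NSC Bmi1Over (9 and 122 reads). The latter lay on either side of both NSC libraries, so the groups overlapped. Its log2 fold change of 0.74 (SE 0.53) rested on replicate 2 of the libraries labelled NSC Bmi1Over, and was -0.79 without it. Some markers of other cell types stood apart in the same way, Sox10 with 0.29 CPM in replicate 1 and 4.64 CPM in replicate 2 of these libraries, Pdgfra with 16.5 and 44.5 CPM and Dcx with 3.83 and 10.2 CPM. Others of the same lists did not, such as Olig1 (1284 and 1020 CPM), Olig2 (1007 and 982 CPM) and Map2 (919 and 788 CPM). The part of these markers in the level of Tenm2 was not tested. Tenm1, the X-linked teneurin, gave 8 and 5 reads in NSC, with 2 and 13 reads in the libraries labelled NSC Bmi1Over, or 0.11 to 0.25 CPM in the 4 libraries, and the groups overlapped.

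Of the latrophilins, Adgrl1 gave 190 and 276 CPM in NSC, with 313 and 490 CPM in the libraries labelled NSC Bmi1Over. The groups did not overlap, but the cultures of each group lay apart, by 0.54 on the log2 scale in NSC and by 0.65 in the other group, beside a log2 fold change of 0.79 (SE 0.25). The value ranged from 0.43 without replicate 2 of the libraries labelled NSC Bmi1Over to 1.08 without replicate 2 of NSC. Adgrl2 gave 226 and 288 CPM in NSC, with 301 and 357 CPM in the libraries labelled NSC Bmi1Over, with a log2 fold change of 0.36 (SE 0.17). Its cultures differed by 0.35 within NSC and by 0.25 within the other group, and the highest NSC library was within 1.04-fold of the lowest of the other group. The order of the 4 libraries in Adgrl1 and Adgrl2, and likewise in Tenm3 and Tenm4, was also their order in the share of unmapped reads and in the share taken by the 10 most abundant genes, as given above. Levels followed this order of libraries for 4 of the 6 members, for 5 of 17 partner genes (among them Unc5a, Unc5b, Nrxn2 and Dag1), for 6 of 38 marker genes tested (among them Syt1) and for 17.6% of all genes tested. The part of these measures in the levels of these genes was not tested.

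Adgrl3, a latrophilin known to bind teneurins and FLRT3 at excitatory synapses, gave 78.8 and 85.5 CPM in NSC, with 81.4 and 99.1 CPM in the libraries labelled NSC Bmi1Over. The groups overlapped, and the log2 fold change was 0.14 (SE 0.14). It was -0.013 with library size alone as the scaling, and -0.012 without replicate 2 of the libraries labelled NSC Bmi1Over. Adgrl4, the latrophilin best known from endothelial cells, gave 1 and 0 reads in NSC and 3 and 8 reads in the other group. In NSC replicate 2, a count of 0 allows up to 0.119 CPM. No fold was computed at these counts. The 8 endothelial markers summed to 5.13 to 6.17 CPM in NSC and to 7.65 to 9.61 CPM in the libraries labelled NSC Bmi1Over, with Cldn5, which defines the tight junctions of brain endothelium, at 0 reads in all 4 libraries. Their part in the reads of Adgrl4 was not tested.

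**Figure D1:**
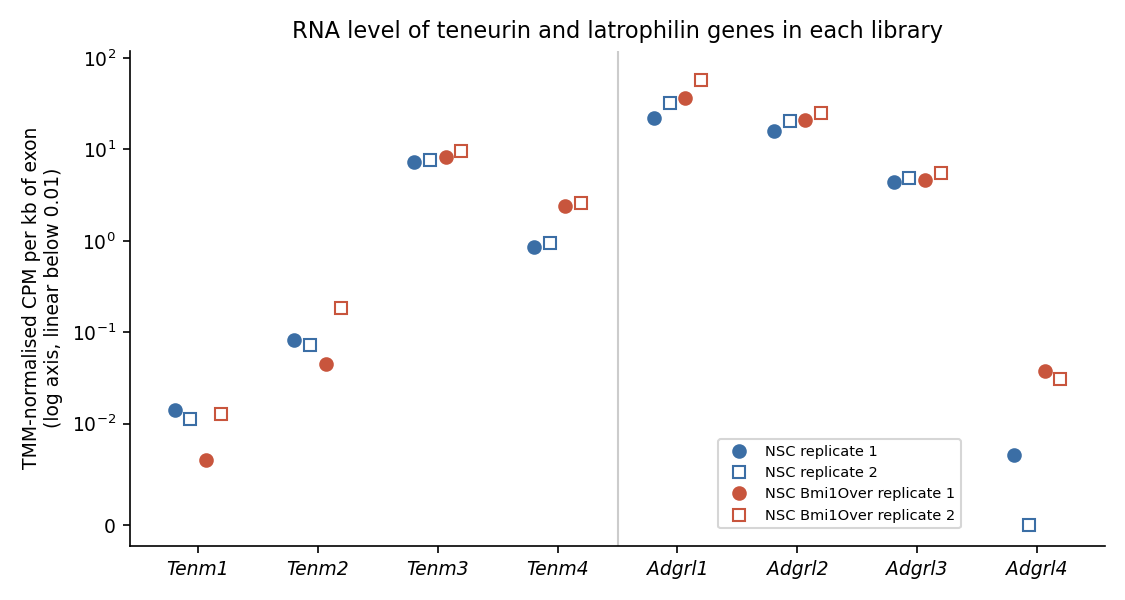
RNA level of the 8 genes, as TMM-normalised CPM per kb of exon on a log axis that is linear below 0.01, with 1 point per library (blue: NSC, red: libraries labelled NSC Bmi1Over, filled: replicate 1, open: replicate 2). The points of Tenm4 fall into 2 separate pairs, at 0.852 and 0.947 and at 2.41 and 2.59, whereas Tenm1, Tenm2 and Adgrl3 overlap between the groups.

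In all, 1 of the 6 members tested, Tenm4, was called higher and 0 were called lower, where 2.03% of all 15521 genes were called higher and 0.122% lower. Adgrl1 was called as well with DESeq2 (9.46% of genes higher), with genes of at least 1 count (6.63%) and without NSC replicate 2 (7.34%), which made 2 members. Adgrl1 and Adgrl2 were added with the replicate block (15.7%), and Adgrl1 and Tenm2 without replicate 1 of NSC Bmi1Over (11.9%), which made 3. Both libraries labelled NSC Bmi1Over lay above both NSC libraries for 4 of the 6 (Tenm3, Tenm4, Adgrl1 and Adgrl2), where 29.0% of all genes tested did so. The median log2 fold change of the 6 was 0.55, beside -0.01 over all genes tested. As the family was chosen on this contrast, nothing is read from these counts.

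**Figure D2:**
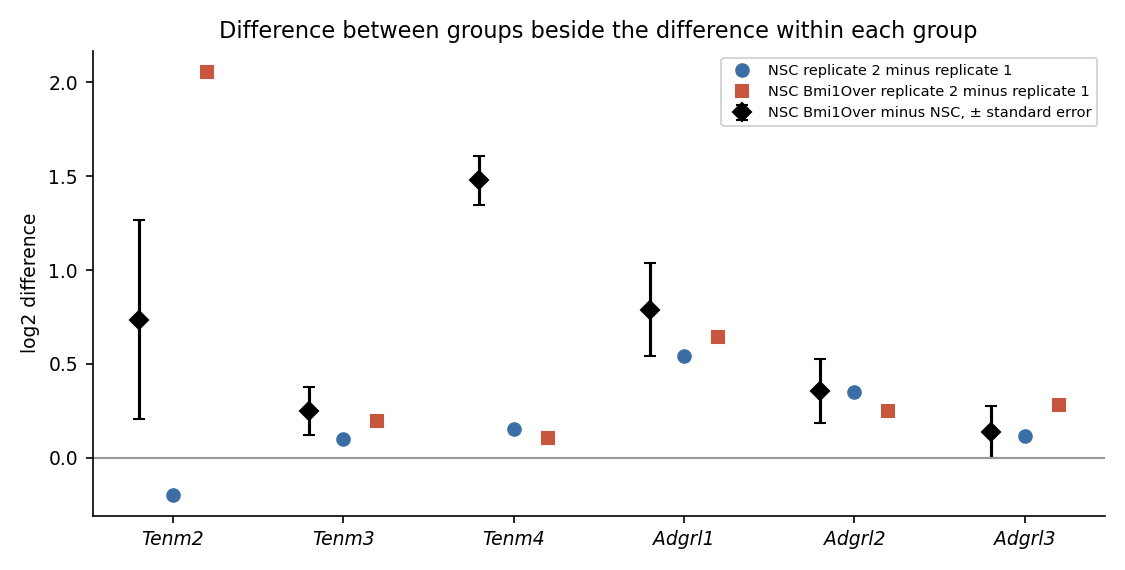
Log2 differences of the 6 genes that passed the filter: black diamonds, NSC Bmi1Over minus NSC with the standard error of the fit; blue circles and red squares, replicate 2 minus replicate 1 within NSC and within the libraries labelled NSC Bmi1Over. For Tenm4 the difference between groups (1.48) stands far above those within groups (0.15 and 0.10), whereas for Tenm2 the difference within the libraries labelled NSC Bmi1Over (2.05) exceeds that between groups (0.74).

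Per kb of exon, a scale on which levels of different genes can be set side by side, Adgrl1 stood first in NSC (27.1 ± 7.1 CPM per kb, SD, n = 2), followed by Adgrl2 (18.1 ± 3.1), Tenm3 (7.48 ± 0.36), Adgrl3 (4.63 ± 0.26) and Tenm4 (0.899 ± 0.067). Tenm2 (0.0776 ± 0.0074), Tenm1 (0.0127 ± 0.0022) and Adgrl4 (0.0035 ± 0.0049) came last. The libraries labelled NSC Bmi1Over kept the order of the first 6, with Adgrl1 at 46.8 ± 14.6, Adgrl2 at 23.2 ± 2.8, Tenm3 at 8.89 ± 0.86, Adgrl3 at 5.09 ± 0.71, Tenm4 at 2.50 ± 0.13 and Tenm2 at 0.115 ± 0.100 CPM per kb. Adgrl1 in NSC replicate 1 (22.1) was close to Adgrl2 in NSC replicate 2 (20.3), and Tenm1 and Adgrl4 rested on too few reads to be ordered. The first places also depended on the length used. With the longest transcript of each gene in place of all its exons, Adgrl2 (42.5 CPM per kb) stood above Adgrl1 (28.5) in NSC, and Adgrl3 (12.1) above Tenm3 (8.55).

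Within the families, Tenm3 made up 88.4% and 88.2% of the summed teneurin level per kb in NSC, against 77.1% and 77.3% in the libraries labelled NSC Bmi1Over. The share of Tenm4 was 10.4% and 10.8% for NSC, against 22.4% and 21.1% in the other group, so that the cultures of a group differed far less than the groups. Among latrophilins, the share of Adgrl1 was 52.1% and 56.1% for NSC, against 58.6% and 65.0% in the libraries labelled NSC Bmi1Over. Adgrl2 went from 37.5% and 35.5% to 34.0% and 28.6%, and Adgrl3 from 10.5% and 8.41% to 7.36% and 6.36%. These shares divide a fixed sum, so that a gain of one gene lowers the others. They depend on the length used. With the longest transcripts, Adgrl2 held 51.7% and 50.7% in NSC and 49.7% and 44.2% in the other group, Adgrl1 32.2% and 35.9% and then 38.3% and 44.9%, and Tenm4 14.0% and 14.5% and then 28.8% and 27.2% of its family.

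The counting did not use strand, and reads that fell on exons of 2 genes were not counted for either. The sum of the stranded columns held 40.2% more reads for Adgrl1, 34.5% more for Adgrl3, 32.1% more for Tenm1 and 12.9% more for Tenm4, and at most 1.35% more for the other members. Exons of Adgrl1 overlap 1107 bp of Gm10644 on the opposite strand, those of Adgrl3 1582 bp of Gm16054, those of Tenm1 1465 bp of Sh2d1a and those of Tenm4 988 bp of C230038L03Rik. Without strand, reads of these pairs cannot be told apart. C230038L03Rik itself was given 0 to 3 reads per library. With the stranded columns summed, the log2 fold change of Adgrl1 was 0.77 and that of Adgrl3 0.23.

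The genes with the pattern most like that of Tenm4 were found among 12250 protein-coding genes that averaged 1 CPM or more, by the smallest root mean square difference between log2(CPM + 1) profiles over the 4 libraries, each centred on its mean. St8sia2, a polysialyltransferase that modifies NCAM, was nearest, at a difference of 0.03, with 4.28 and 4.71 CPM in NSC, against 13.5 and 15.1 CPM in the libraries labelled NSC Bmi1Over. It was followed by Agt, which encodes angiotensinogen (0.06), Prelp, a matrix proteoglycan (0.06), Hrc, a calcium-binding protein of the sarcoplasmic reticulum (0.07), and Dmp1, a matrix protein of bone and dentin (0.08). Agt was the closest of these to Tenm4 in level, with 15.6 and 16.6 CPM in NSC and 47.4 and 46.2 CPM in the other group. Of the family, Adgrl1 came nearest, at position 660 with a difference of 0.40. The measure uses the contrast on which Tenm4 was chosen, with 4 libraries, and is given as a description.

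The known partners of the family, taken from a list of 17 genes, all passed the filter. Unc5b, one of the netrin receptors, rose from 20.2 and 24.1 CPM in NSC to 37.1 and 48.1 CPM in the libraries labelled NSC Bmi1Over. Its log2 fold change was 0.95 (SE 0.16, adjusted p = 0.0370 by edgeR's quasi-likelihood F-test over all genes, n = 2 per group), and the adjusted p ranged from 3.58e-07 to 0.0552 over 13 other settings, of which 12 kept the call. The call was lost without replicate 2 of the libraries labelled NSC Bmi1Over, where the log2 fold change was 0.75. It was the only partner called, and 0 of 17 were called lower, beside 2.03% and 0.122% of all genes. At an unadjusted p under 0.05, edgeR gave 6 partners higher and 1 lower, beside 17.0% and 7.22% of all genes. DESeq2 called 4 higher and 0 lower after adjustment, beside 9.46% and 1.39%. Log2 fold changes were above 0 for 13 partners and below 0 for 4, with a median of 0.44 beside -0.01 over all genes tested. With 2 libraries per group, an exact permutation test of a single gene cannot give a two-sided p below 0.333.

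UNC5 proteins are repulsive netrin receptors that also bind FLRTs and latrophilins. The other 3 had log2 fold changes of 0.62 (SE 0.18, Unc5a), 0.53 (SE 0.26, Unc5c) and 0.71 (SE 0.26, Unc5d), and did not pass the test in edgeR. DESeq2 called Unc5a as well (adjusted p = 0.0337), and not Unc5c or Unc5d. The libraries labelled NSC Bmi1Over lay above NSC for Unc5a, Unc5b and Unc5d, as they did for 29.0% of all genes tested, and overlapped with NSC for Unc5c. The FLRTs, which bridge latrophilins and UNC5, were close to 0 in Flrt2 (0.02, SE 0.14) and Flrt3 (0.15, SE 0.17). Flrt1 had 0.63 (SE 0.33) at 1.43 to 3.27 CPM, and all 3 overlapped between the groups.

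Of the neurexins, presynaptic adhesion molecules that can bind latrophilin 1, Nrxn2 was at 224 and 296 CPM in NSC, against 315 and 436 CPM in the libraries labelled NSC Bmi1Over (log2 fold change 0.53, SE 0.20), and the groups did not overlap. Nrxn3 had -0.04 (SE 0.23) with overlapping groups, and neither passed the test. Cntn6, a contactin reported to bind latrophilin 1, had 0.42 (SE 0.19) and did not pass it either.

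Among the matrix and intracellular partners, Dag1, the dystroglycan gene, was the most abundant at 709 and 838 CPM in NSC and 1043 and 1245 CPM in the other group, with a log2 fold change of 0.56 (SE 0.19, adjusted p = 0.127 by edgeR's quasi-likelihood F-test, and 0.0098 by DESeq2). Mbd1, a methyl-CpG-binding protein that can bind the intracellular part of teneurin 1, had -0.16 (SE 0.12). The Shank scaffolds, which bind the tails of latrophilins, had 0.63 (SE 0.35, Shank1), -0.22 (SE 0.28, Shank2) and 0.02 (SE 0.15, Shank3), and all 3 overlapped between the groups.

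**Figure D3:**
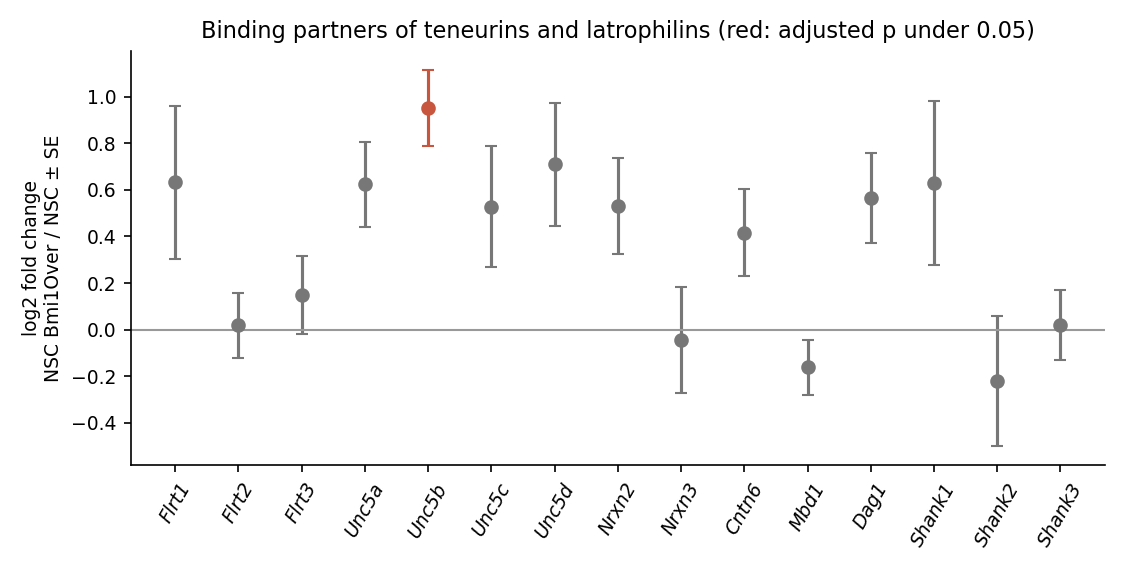
Log2 fold change (NSC Bmi1Over over NSC) of 15 partner genes with the standard error of the fit, n = 2 libraries per group, with the gene called at an adjusted p under 0.05 in red. Unc5b stands highest, at 0.95, and Shank2 lowest of those shown, at -0.22.

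The mark was compared next. The NSC list held 12982 broad peaks over 11542075 bp and the NSC Bmi1Over list 6810 over 4807073 bp. The lowest fold enrichment over background was 3.52 in the former and 4.03 in the latter, so the lists had different lower limits. The NSC Bmi1Over list thus held 52.5% as many peaks and 41.6% as many bp, and counts in single genes are given beside these shares. With 1 list per group, differences between the lists have no replicate check. The study's methods give unequal read totals for the ChIPSeq replicates, the deepest of them from NSC. The weaker replicates were dropped there, partly on their number of reads, but the replicate behind each list is not named. Depth and group cannot be told apart in these lists.

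Peaks were listed at teneurins and at none of the latrophilins, and the difference between the families was not tested. A peak within 5 kb of an annotated transcription start site (TSS) was found in NSC for 4 of the 4 teneurins and 0 of the 4 latrophilins, beside 8.92% of 21951 protein-coding genes. In NSC Bmi1Over it was found for Tenm2, Tenm3 and Tenm4 and again for 0 latrophilins, beside 4.45% of genes. Of the 29 TSSs of teneurins, 17 had a peak in NSC and 13 in NSC Bmi1Over. Of the 54 TSSs of latrophilins, 0 had one in either list, and no peak lay anywhere within a latrophilin gene. At these shares of all genes, 0 of 4 is not a result about latrophilins. With the outermost 5′ end of each gene in place of all TSSs, 2 teneurins had a peak in NSC and 1 in NSC Bmi1Over. The teneurin genes are longer, with 3486688 bp against 1129019 bp in sum, and the part of gene length in these counts was not tested. Adgrl3 measures 804996 bp and has 24 TSSs, and Tenm3 measures 616270 bp and has 7. Of the 146 protein-coding genes at least as long as Tenm3, 40.4% had a peak in the gene in NSC and 21.9% in NSC Bmi1Over.

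**Figure D4:**
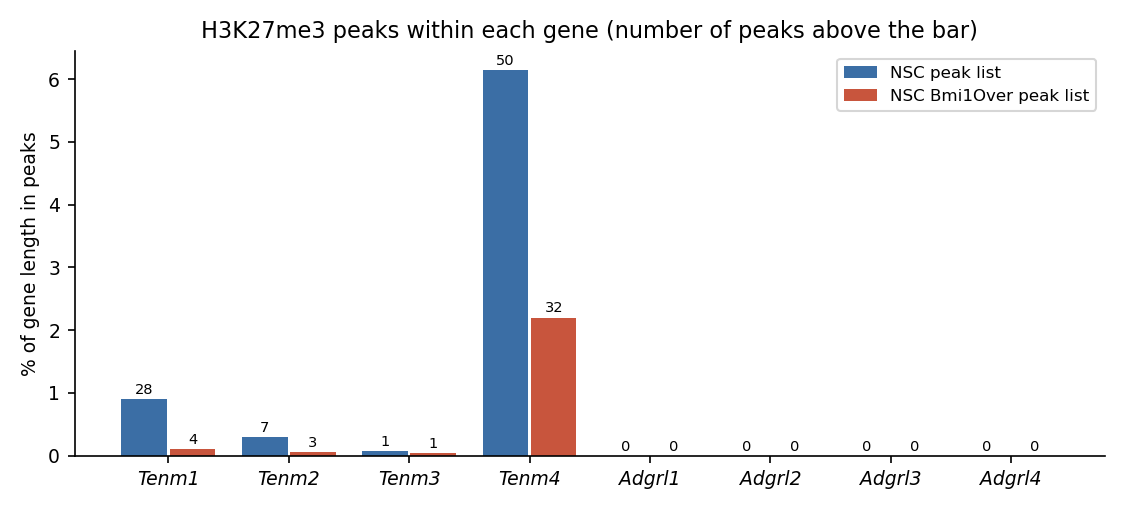
Percent of the length of each gene covered by H3K27me3 peaks, with blue bars for the NSC list and red bars for the NSC Bmi1Over list (1 list each) and the number of peaks above each bar. Tenm4 has the tallest bars (6.14% and 2.20%), and all latrophilins are at 0.

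Tenm4 (chr7:96171246-96911093, plus strand) carried most of the peaks of the family, with 50 in NSC, covering 45459 bp, and 32 in NSC Bmi1Over, covering 16287 bp. That was 6.14% and 2.20% of the gene, and 8.78% and 4.63% of protein-coding genes had any peak in the gene. By number of peaks it stood at position 6 of all protein-coding genes in both lists, and by covered length at position 8 and 22. Against NSC, the NSC Bmi1Over list held 64.0% of the number of peaks and 35.8% of the covered length at Tenm4, beside 52.5% and 41.6% over the whole lists. The gene took 0.394% of all bp in NSC peaks and 0.339% of those in NSC Bmi1Over peaks. The mean fold enrichment of its peaks was 4.19 in NSC and 4.62 in NSC Bmi1Over, beside 4.34 and 5.09 over the whole lists. At Tenm4 the share by number of peaks thus lay above that of the whole lists and the share by covered length below it, with no replicate to give a spread. The widest peak of the gene was 5875 bp long in NSC and the widest 2016 bp in NSC Bmi1Over.

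With 5 kb on either side added, Tenm4 had 53 peaks in NSC and 34 in NSC Bmi1Over. Of the latter, 29 (85.3%) overlapped a peak of NSC, and 19 (35.8%) of the former overlapped a peak of NSC Bmi1Over. The overlap over all peaks of the lists was not computed, so these shares cannot be called particular to Tenm4. Of the NSC peaks, 47 lay in introns and 3 touched an exon, and of the NSC Bmi1Over peaks 31 and 1. Peaks less than 20 kb apart formed 7 clusters along the gene. Of the 11 annotated TSSs, 9 had a peak within 5 kb in NSC and 7 in NSC Bmi1Over.

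The first cluster reached from -1511 bp to 4303 bp relative to the start of the longest coding transcript, which has 33 exons, and took in exon 1. It held 3 peaks in each list, over 4810 bp in NSC and 1639 bp in NSC Bmi1Over, with a highest fold enrichment of 6.58 and 6.29, the highest of Tenm4 in each list. In NSC, one of its peaks ran over 2246 bp (chr7:96211275-96213520) across a coding TSS and the stretch of sequence shown above. In NSC Bmi1Over 2 peaks lay within it. The longer measured 1121 bp (chr7:96211753-96212873) and began 82 bp after that TSS, and the other 200 bp (chr7:96213240-96213439). The second cluster, around exon 5, held 14 peaks in each list, over 15042 bp and 6426 bp. The fifth, around exons 15 to 18, held 22 peaks in NSC over 20553 bp and 12 in NSC Bmi1Over over 7326 bp, and its widest peak in NSC (chr7:96789620-96795494) was the widest of the gene. The third cluster (4 peaks, 1235 bp, after exon 5) and the sixth (1 peak, 254 bp, after exon 26) were listed in NSC alone, all at or below a fold enrichment of 4.60. The outermost 5′ end of Tenm4, the start of another coding transcript, had no peak within 5 kb in either list.

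**Figure D5:**
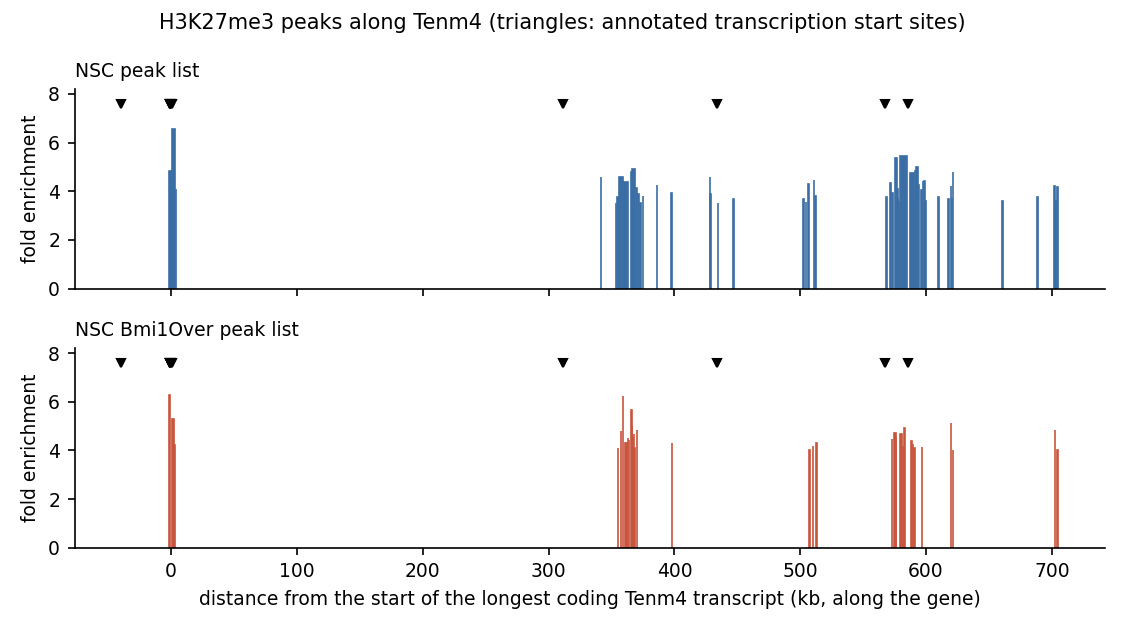
H3K27me3 peaks along Tenm4 in the NSC list (top) and the NSC Bmi1Over list (bottom), by distance from the start of the longest coding transcript in kb. Bar height is fold enrichment over background, bar width is peak length and triangles are annotated TSSs. The same main groups of peaks are seen in both lists, at the start and in the second part of the gene, with 53 peaks in NSC and 34 in NSC Bmi1Over.

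Tenm1 (chrX:42527866-43429126, minus strand) had 28 peaks in NSC, spread along the gene, with a median length of 242.5 bp and a widest of 640 bp. In NSC Bmi1Over it had 4, or 14.3% as many, beside 52.5% over the whole lists. The covered length was 8146 bp and 926 bp, or 11.4% of that in NSC beside 41.6% over the whole lists. The 3 peaks near its TSSs in NSC had no counterpart in NSC Bmi1Over, and none of its 4 peaks there overlapped a peak of NSC. Its RNA was at or below 0.25 CPM in all 4 libraries. The mean fold enrichment of the Tenm1 peaks in NSC, 3.93, lay below the lowest value in the NSC Bmi1Over list, 4.03.

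Tenm2 (chr11:36006656-37235964, minus strand) had 7 peaks in NSC and 3 in NSC Bmi1Over, over 3700 bp and 665 bp. The widest, 1273 bp at 5.06-fold enrichment (chr11:37234163-37235435), lay 447 bp inside a TSS at the 5′ end, and a peak of 262 bp at 4.40-fold lay wholly within it in NSC Bmi1Over. The sequence shown above is from this shared stretch. A peak at another TSS of Tenm2 was listed in NSC Bmi1Over alone (203 bp, 5.59-fold). Tenm3 (chr8:48227682-48843951, minus strand) had 1 peak in each list, 471 bp at 4.77-fold in NSC and 268 bp at 5.49-fold in NSC Bmi1Over. They did not overlap and lay 563 bp and 2412 bp from the same TSS. At Tenm3 the NSC Bmi1Over list thus held 100% of the number and 56.9% of the length.

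Over the teneurins, 10 of the 12 promoter peaks of NSC Bmi1Over overlapped a peak of NSC, of which 9 of 9 at Tenm4 and 1 of 2 at Tenm2. The same share over the promoter peaks of all genes was not computed. Among the partners, 6 of 17 had a promoter peak in NSC, among them Unc5a, Unc5d, Nrxn3, Shank1 and Shank2, beside 8.92% of protein-coding genes, and Shank1 and Shank2 had one in NSC Bmi1Over as well, beside 4.45%. Unc5b, the partner called higher, had no peak in either list. Set beside the RNA, the members with a peak in the gene were at 0.11 to 0.25 CPM (Tenm1), 0.51 to 2.13 CPM (Tenm2), 74.0 to 97.3 CPM (Tenm3) and 17.9 to 54.5 CPM (Tenm4). Those without one were at 190 to 490 CPM (Adgrl1), 226 to 357 CPM (Adgrl2), 78.8 to 99.1 CPM (Adgrl3) and at most 0.17 CPM (Adgrl4).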

How the data were processed

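RNASeq was measured in 2 cultures of NSC and 2 labelled NSC Bmi1Over, and H3K27me3 ChIPSeq was given as 1 peak list for each. RNASeq reads were trimmed (Trim Galore) and mapped to mm10 (STAR) by the authors, who deposited raw counts per gene. Rows for reads without a gene took 27.8% to 34.1% of each library and were left out. For ChIPSeq, the authors aligned reads with Bowtie2 2.3.4 and called broad peaks with MACS2 per library, on the replicate they kept. Each deposited peak carries a fold enrichment (a ratio to background) along with p-values and q-values as −log10, and the deposited display score was not used. The study's methods give read totals for the ChIPSeq replicates without assigning them to the lists.

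Of 50686 identifiers, 50376 matched GENCODE vM21 on chromosomes. Unstranded counts of the 15521 genes kept by filterByExpr were scaled by TMM (factors 0.932 to 1.08) and compared with edgeR 4.0.16 (quasi-likelihood F-test, no covariate, Benjamini-Hochberg adjusted p under 0.05 called) in R 4.3.3. The biological coefficient of variation was 12.9%. CPM per kb used the union of exons. A promoter was 5 kb on either side of any annotated TSS, and peaks were shared at 1 bp of overlap. Sequences came from RefSeq GRCm38.p6. On counts simulated for this comparison over 15266 genes, 84% of 2-fold and 100% of 4-fold changes were called, and 6.12% of calls were false. The changes were put only into genes with a mean above 1 CPM. Each gene was drawn independently, so the simulation does not cover differences that many genes of a library share. The floor for a count of 0 was 3 reads and covers counting error only.

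The members and lists were chosen with earlier results of these data known. The text names the 8 members, Bmi1, the partners (2 of the 17 are not reported here), marker genes that were called or define a cell type, and the 5 genes most like Tenm4. Alternatives were DESeq2 1.42.0, its size factors, library size alone, other filters, stranded columns summed, protein-coding genes only, a replicate block, thinning to the shallowest library, each library left out, and other limits on peaks and promoters.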

Additional observations from a re-analysis of the deposited data

How the results depend on the processing

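Under 13 alternatives the log2 fold change ran from 1.33 to 1.55 for Tenm4, 0.43 to 1.08 for Adgrl1, 0.19 to 0.54 for Adgrl2 and 0.10 to 0.34 for Tenm3, given as a description since the family was chosen on this contrast. Directions reversed for Tenm2 without replicate 2 of NSC Bmi1Over (-0.79, with 1.25 without replicate 1) and for Adgrl3 without that library (-0.012, with 0.27 without replicate 1) and with library size alone (-0.013), under which the median over all genes was -0.17. The causes were not tested. Genes called higher and lower, 315 and 19 as reported, came to 1297 and 191 with DESeq2, 1893 and 463 with at least 1 count in any library and 2430 and 1029 with the replicate block. Lower calls came to 12 with DESeq2's size factors and 191 with library size alone, the latter beside 346 higher calls. Leaving out 1 library gave 172 to 1952 higher and 4 to 594 lower. Partners called higher, 1 as reported, came to 4 with DESeq2, 4 with at least 1 count and 5 with the replicate block. Leaving out 1 library gave 0 to 4, with 0 without replicate 2 of NSC Bmi1Over. Partners called lower, 0 as reported with edgeR, came to 1 with at least 1 count, 1 with the replicate block and 0 to 1 on leaving out 1 library. Samples with the same number deviated together with a correlation of 0.17 over 2 pairs, which is too few to show that numbers pair the cultures, so the block was not used. Members with a promoter peak, 4 in NSC, came to 2 with the outermost 5′ end alone (beside 7.84% of protein-coding genes), 2 at a fold enrichment of at least 5 (3.13%) and 2 at a length of at least 1000 bp (3.96%). In NSC Bmi1Over, 3 came to 2 with a window of 1 kb, without Tenm3 (3.03%), to 1 with the outermost 5′ end (4.0%) and to 1 at that length (1.55%). Latrophilins had 0 under each peak alternative. Levels per kb moved by more than the spread between replicates in 10 of 16 values with the longest transcript, 6 with the stranded columns and 2 with library size alone. Depth limits Tenm1, Tenm2 and Adgrl4, which had at most 122 reads in a library, and 2 libraries per group limit all comparisons.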

Other observations

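Markers of the cell types in which teneurins and latrophilins are usually studied were listed beside the family. Their calls stand beside 2.03% of all genes tested called higher and 0.122% called lower in edgeR. Of 7 neuron markers that passed the filter, Syt1, the calcium sensor of synaptic vesicles, was called higher in the libraries labelled NSC Bmi1Over, at 66.5 and 95.8 CPM against 9.13 and 27.2 CPM in NSC (log2 fold change 2.18, SE 0.41, adjusted p = 0.0428 by edgeR's quasi-likelihood F-test). Of the other 6, Gap43 (0.34) and Rbfox3 (0.06) had log2 fold changes above 0, and Snap25 (-0.48), Tubb3 (-0.22), Dcx (-0.21) and Map2 (-0.07) below 0. The median of the list was -0.07. The summed level of the neuron list, most of it Map2, was 1027 to 1036 CPM in NSC and 1014 to 1110 CPM in the other group. Of 8 markers of the oligodendrocyte lineage, Cnp, an enzyme of myelinating cells, was called lower (the list had 5 values above 0 and 3 below, with a median of 0.09), at 91.4 and 71.0 CPM in NSC and 47.8 and 49.6 CPM in the libraries labelled NSC Bmi1Over (log2 fold change -0.74, SE 0.15, adjusted p = 0.0458 in edgeR). The cultures labelled NSC Bmi1Over differed for Sox10 (0.29 and 4.64 CPM), Pdgfra (16.5 and 44.5 CPM) and Cspg4 (250 and 425 CPM, log2 fold change 0.53, SE 0.25). These define the lineage or its progenitors, and their groups overlapped. Olig1 (1284 and 1020 CPM) and Olig2 (1007 and 982 CPM), of the same list, were not higher in replicate 2 of these cultures. Of 6 astrocyte markers, Aldh1l1, a folate enzyme, was called lower, at 122 and 94.2 CPM against 66.0 and 53.3 CPM (log2 fold change -0.86, SE 0.17, adjusted p = 0.0440 in edgeR). The list had 3 values above 0 and 3 below, with a median of -0.02, and Slc1a2 (0.39) and Gja1 (0.22) lay above NSC in both libraries labelled NSC Bmi1Over. Of 5 endothelial markers tested, all 5 had values above 0, with a median of 0.57, and 4 lay above NSC in both libraries labelled NSC Bmi1Over, beside 29.0% of all genes. In edgeR 0 of them were called, with 2 higher at an unadjusted p under 0.05, beside 17.0% of all genes. DESeq2 called 0, beside 9.46% of genes called higher. Microglial and mesenchymal markers summed to at most 3.17 CPM in a library. The part of these cell types in the level of Tenm4 was not tested.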
